A study of Mus musculus with 22 samples.

Results

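Immunoglobulin variable segments are the germline gene pieces that encode most of the antigen-binding domain of an antibody chain. All genes annotated as functional immunoglobulin variable genes on the mouse assembly GRCm38 were taken, 216 of the 52636 genes counted: 113 heavy chain segments (Ighv), 100 kappa light chain segments (Igkv) and 3 lambda light chain segments (Iglv). All 216 were matched by their Ensembl identifier. The 130 variable pseudogenes were kept apart. The study took the renal capsule, the thin fibrous layer around the kidney, from young and old mice, and sequenced RNA from whole tissue or from macrophages isolated by flow cytometry, in 22 libraries. The groups used here were 3 young and 3 aged capsule tissue libraries, 4 young and 4 aged libraries named RCAM, 4 libraries of capsule macrophages and 4 of kidney macrophages. The labels list no treatment and give no strain, genotype, sex or age in months, and the macrophage libraries carry no age label. The labels list RCAM as whole tissue and do not expand the name, while the 8 macrophage marker genes summed to 30691 to 34207 CPM (counts-per-million of the library total) in the RCAM libraries. Their sum was 28639 to 31588 CPM in macrophages of the capsule, 20837 to 22367 CPM in those of the kidney, and 1753 to 9177 CPM in whole capsules. No label says whether replicates are separate animals or how many animals were pooled, so every test below rests on variation among libraries, which may be technical.

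A developing B cell joins one variable segment to a joining segment, with a diversity segment between them in the heavy chain, and its descendants generally keep that choice. A B cell therefore transcribes one productive heavy and one productive light segment at high level, and antibody-secreting plasma cells transcribe them far more strongly than resting B cells. In a bulk library, segment counts reflect both how many B lineage cells there are and how much antibody RNA each makes, which cannot be told apart. B-1 cells are self-renewing B cells of the body cavities that make natural antibodies. Among mouse B-1 cells the pairs Ighv11-2 with Igkv14-126 and Ighv12-3 with Igkv4-91 are well known, since both encode antibodies that bind phosphatidylcholine.

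The germline sequences of these 4 segments and of Igkv3-2, the most counted segment of 3 aged libraries, are shown because they held a large share of the variable counts in the aged libraries. Each is the coding part of the variable exon, at most its last 300 bases, 5′ to 3′ on the coding strand, from the GENCODE M21 transcripts. Capitals run from the conserved cysteine codon near the end of the segment to its 3′ end, the germline start of the last hypervariable loop.
Ighv11-2: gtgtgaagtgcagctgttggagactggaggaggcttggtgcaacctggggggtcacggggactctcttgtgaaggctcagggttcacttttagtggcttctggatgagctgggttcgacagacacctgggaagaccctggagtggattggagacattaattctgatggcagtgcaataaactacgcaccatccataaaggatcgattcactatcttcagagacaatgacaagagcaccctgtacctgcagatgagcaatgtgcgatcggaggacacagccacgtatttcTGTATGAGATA
Ighv12-3: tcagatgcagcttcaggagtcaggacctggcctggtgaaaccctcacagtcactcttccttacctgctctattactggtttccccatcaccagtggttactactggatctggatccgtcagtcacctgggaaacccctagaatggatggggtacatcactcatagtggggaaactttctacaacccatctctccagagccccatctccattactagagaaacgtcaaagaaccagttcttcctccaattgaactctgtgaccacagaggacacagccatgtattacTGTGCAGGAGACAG
Igkv14-126: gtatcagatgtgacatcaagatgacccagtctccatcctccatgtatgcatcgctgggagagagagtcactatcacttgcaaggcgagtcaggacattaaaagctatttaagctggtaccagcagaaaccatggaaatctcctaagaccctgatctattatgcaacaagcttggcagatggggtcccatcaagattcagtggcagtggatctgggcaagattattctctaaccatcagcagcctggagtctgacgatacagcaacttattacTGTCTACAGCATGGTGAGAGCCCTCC
Igkv4-91: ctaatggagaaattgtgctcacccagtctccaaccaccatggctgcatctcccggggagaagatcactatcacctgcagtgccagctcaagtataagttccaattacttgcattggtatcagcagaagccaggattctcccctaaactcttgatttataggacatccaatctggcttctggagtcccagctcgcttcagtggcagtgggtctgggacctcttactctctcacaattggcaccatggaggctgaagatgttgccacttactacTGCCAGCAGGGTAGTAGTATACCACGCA
Igkv3-2: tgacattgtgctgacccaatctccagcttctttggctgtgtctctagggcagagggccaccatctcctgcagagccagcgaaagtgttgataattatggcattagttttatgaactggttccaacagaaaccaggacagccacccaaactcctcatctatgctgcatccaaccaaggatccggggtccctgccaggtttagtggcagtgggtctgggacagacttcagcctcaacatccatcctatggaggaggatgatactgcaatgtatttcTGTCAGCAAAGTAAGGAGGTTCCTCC
In GRCm38 these exon stretches lie at chr12:114048241-114048540 (minus strand) for Ighv11-2, chr12:114366521-114366820 (minus strand) for Ighv12-3, chr6:67896345-67896642 (plus strand) for Igkv14-126, chr6:68768555-68768854 (minus strand) for Igkv4-91 and chr6:70698768-70699067 (plus strand) for Igkv3-2. Ighv11-2 and Ighv12-3 were identical at 61.6% of aligned bases, and the 3 kappa segments at 65.5% to 67.6%. Igkv3-2 was added to the shown segments after its counts were seen. The full sets lie on chromosome 12 between positions 113578504 and 116000461 for heavy, on chromosome 6 between 67555497 and 70704177 for kappa and on chromosome 16 between 19085017 and 19260859 for lambda, and 214 of the 216 genes have 2 exons, a leader and a variable exon.

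Reads were single-end and 50 bases long, and many segments resemble each other. Over the 216 segments a median of 77.6% of the 50-base stretches of a transcript occurred in no other transcript, 43 segments were unique throughout, and 31 were unique over less than 50% of their length. Ighv11-2 was the least certain of the shown segments, since Ighv11-1 matched it at 98.7% of bases. Ighv11-1 itself had 1 count in aged capsule library 3 and 0 in the other 21 libraries. The closest relative of Igkv3-2 was Igkv3-1 at 92.9%, of Igkv14-126 Igkv14-111 at 90.9%, of Igkv4-91 Igkv4-53 at 86.8% and of Ighv12-3 Ighv3-6 at 78.8%. Rearranged and mutated transcripts differ from the germline, and how the deposited counts treated such reads or reads with several matches is not given in the sources used here.

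Libraries held 20586795 to 54421764 gene counts, with the young capsules lowest at 20586795 to 22188167 and the aged capsules at 27091618 to 43230225. Some libraries stood apart. Both replicate 2 capsule libraries carried adrenal cortex transcripts, 179 CPM over 5 marker genes in the young and 5910 CPM in the aged one, against 3.17 to 13.6 CPM in the other 4. Young capsules held 5982 to 23261 CPM of 5 proximal tubule markers against 1154 to 5717 CPM in aged capsules. Capsule macrophage library 3 held far more variable segment counts than the other 3 of its group. Kidney macrophage libraries 1 and 3, and 2 and 4, shared most of their segment usage, as described below, although no pair of libraries of one group agreed within sampling noise: over genes with 50 to 500 counts the median chi-square was 1.56 for kidney macrophages 1 and 3, the lowest of any pair, against 0.455 from sampling alone. Over these genes kidney macrophages 2 and 4 were not a closest pair, at 4.08 against 2.70 for libraries 2 and 3 and 2.84 for libraries 1 and 2.

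Of the 216 segments 197 had at least 1 count in some library, 158 had at least 10 and 79 at least 100. The 19 without any count were 15 heavy and 4 kappa segments, and no segment was counted in all 22 libraries. A count was seen for 91 segments in any young capsule library and for 192 in any aged one; 6 and 112, respectively, were counted in every library of the group. The other groups had 89 segments in aged RCAM, 10 in young RCAM, 54 in kidney macrophages and 13 in capsule macrophages. The number seen rises with the number of variable counts, so these figures describe detection rather than the size of a repertoire.

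The summed level of all variable segments ran over 4 orders of magnitude between libraries. Young capsules had 6.46, 11.2 and 15.5 CPM, and aged capsules 724, 805 and 1863 CPM, from 30082 to 50461 counts. Every aged capsule lay at least 46.5-fold above every young one, and the mean of the aged libraries was 102-fold the mean of the young. Young RCAM libraries had 0.110, 0.160, 0.587 and 0.314 CPM, resting on 6, 8, 30 and 16 counts, and aged RCAM libraries had 348, 351, 167 and 192 CPM. The lowest aged RCAM library was 285-fold above the highest young one, and the means were 902-fold apart. Capsule macrophages had 0.243, 0.222, 136 and 0.178 CPM and kidney macrophages 6.22, 9.11, 6.47 and 9.53 CPM. In order, aged capsule tissue stood above aged RCAM without overlap, young capsule tissue and kidney macrophages overlapped below them, and young RCAM overlapped with 3 of the 4 capsule macrophage libraries at the bottom.

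**Figure D1:**
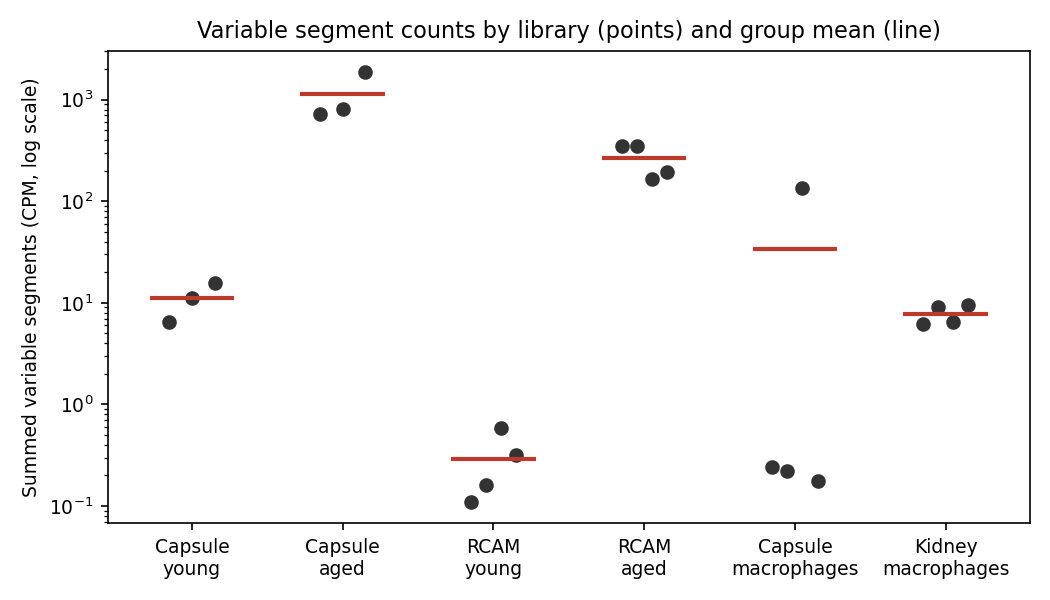
Summed CPM of the 216 variable segments in each library on a log axis, by group; each point is a library and the line is the group mean. The aged capsules sit between 724 and 1863 CPM, above the young capsules at 6.46 to 15.5 CPM, and capsule macrophage library 3 at 136 CPM sits far above the other 3 of its group.

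The comparison of aged with young capsule tissue asks which segments changed with age. Single segments were tested with edgeR's quasi-likelihood test over all 16350 genes that passed a filter on low counts, which 67 segments passed (26 heavy, 38 kappa, 3 lambda) and 149 did not. A segment could pass through its aged counts alone, and 15 of the 67 had no count in any young library. At an adjusted p under 0.05, 10 segments rose and 0 fell, 2 heavy, 7 kappa and 1 lambda. Of all genes tested, 0.153% rose and 0.0856% fell by this rule. At an unadjusted p under 0.05, 61 of the 67 differed. DESeq2 called 52 segments, and of all 16350 genes 754 higher and 1122 lower. Limma-voom called 5 segments, and of all genes 14 higher and 11 lower. Without overlap between the groups, 57 of the 67 were higher in aged capsules and 0 lower, against 14.2% higher and 12.8% lower among all genes tested. Since a segment could pass the filter through its aged counts, these counts over the 67 describe them and are no separate support for the direction. Over all 216 segments, filtered or not, 99 were higher in every aged library than in every young one, 0 the reverse, and 22 had no count in either group. The reverse order needed a count in every young library, which 6 segments had, so nothing is read from the 0. The share of all unfiltered genes in either order was not computed, and the 99 are a description. Ighv1-19 was the 1 tested segment with a log2 difference below 0 (-0.10, adjusted p = 0.970, edgeR), with 0, 54 and 9 counts in young and 64, 35 and 18 in aged capsules.

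Igkv4-91, the light partner in one phosphatidylcholine-binding pair, had 0, 1 and 16 counts in the young capsules and 3257, 3815 and 1834 in the aged ones. It rose by 8.14 ± 0.76 on the log2 scale (SE; adjusted p = 0.0229, edgeR's quasi-likelihood test). Its heavy partner Ighv12-3 had 1, 0 and 9 counts in young and 1439, 1748 and 514 in aged libraries. Ighv12-3 rose by 7.57 ± 0.78 on the log2 scale (SE; adjusted p = 0.0249, edgeR's quasi-likelihood test). For both segments young library 3 was the highest young library and every aged library lay far above it.

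Igkv3-2, a kappa segment, had 0, 5 and 2 counts in young capsules and 6985, 4281 and 461 in aged ones, a log2 difference of 9.60 ± 1.10 (adjusted p = 0.0280, edgeR's quasi-likelihood test). Aged libraries 1 and 2 held much more of it than library 3. Iglv1, the lambda segment with most counts, had 2, 2 and 15 counts in young and 809, 751 and 266 in aged capsules. It rose by 5.64 ± 0.68 (adjusted p = 0.0322, edgeR's quasi-likelihood test), again with no overlap. The other 2 lambda segments had the same order of groups but did not pass the threshold: Iglv2 with 1, 0 and 10 young and 151, 118 and 86 aged counts (adjusted p = 0.0826, edgeR), and Iglv3 with no young count and 166, 27 and 17 aged counts (adjusted p = 0.0858, edgeR).

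The remaining called segments had fewer counts. Igkv5-39 had 2, 4 and 0 counts in young and 246, 694 and 218 in aged capsules and rose by 6.68 ± 0.82 on the log2 scale (adjusted p = 0.0339, edgeR). Igkv1-117 had 2, 4 and 0 against 197, 270 and 78 and rose by 5.52 ± 0.77 (adjusted p = 0.0450, edgeR). In both, as in the others called, the lowest aged library lay well above the highest young library. Igkv8-24 had 2 young counts in all against 606 aged ones, a ratio of pooled CPM of 180.3 with a 95% counting interval of 49.7 to 1492 (Clopper-Pearson), and Ighv6-6 had 2 against 292, a ratio of 86.9 with an interval of 23.8 to 721. Igkv12-44 and Igkv17-127 had no count in any young capsule; against the limit of 3 counts over the 3 young libraries they were at least 94.3-fold and at least 52.3-fold higher in aged capsules. These intervals and limits cover counting error only.

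The other phosphatidylcholine-binding pair reached the highest counts of both chains in any capsule library. Igkv14-126 had 3, 25 and 34 counts in young capsules and 4697, 3185 and 32280 in aged ones. Ighv11-2 had 0, 7 and 0 in young and 872, 706 and 5548 in aged capsules. Both lay higher in all 3 aged libraries, and neither passed the threshold (log2 differences 8.83 ± 1.47 and 9.42 ± 1.56, adjusted p = 0.0611 for each, edgeR's quasi-likelihood test). Aged library 3 alone held far more of both than the other 2. Of a second pair used by B-1 cells, the phosphorylcholine-binding Ighv7-1 and Igkv7-33, Ighv7-1 had 6, 17 and 0 counts in aged capsules, Igkv7-33 had 0, 7 and 0, and neither had any in young ones.

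The number of called segments depended on single libraries, and so did that of all genes. For segments it was 0 without young library 1 or without aged library 1, where 0 of all genes tested were called. It was 3 without young library 3, where 5 of all genes rose and 1 fell. It was 17 without young library 2 (63 of all genes rose and 324 fell) or without aged library 2 (93 and 22). Without aged library 3 it was 8, of which 3 were among the 10 (14 and 9 of all genes). With both adrenal-bearing replicate 2 libraries left out it was 24, the 10 among them (176 and 311 of all genes).

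Chain usage was described by the share of variable counts from each locus, which compares segments of nearly equal length. Heavy segments made up 41.4%, 46.4% and 21.2% in young capsules and 24.7%, 26.8% and 16.5% in aged ones, so the groups overlapped through young library 3. The 95% Wilson intervals were wide in young libraries, 33.3% to 49.9% in library 1, and narrow in aged ones, 24.2% to 25.2% in library 1. The group means were 36.3% ± 13.4 and 22.7% ± 5.43 (SD, n = 3 each). Nearly all of the rest was kappa, 52.7% to 71.6% in young and 70.3% to 82.8% in aged capsules. In the deposited counts Igkc, the kappa constant gene, is listed at 0 in all 22 libraries, so kappa usage can be read only from the variable segments.

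Lambda segments made up 3.85%, 1.56% and 9.19% of light chain variable counts in young capsules and 4.78%, 4.07% and 0.876% in aged ones. The ranges overlapped, and the young values rested on 3, 2 and 25 lambda counts. Within aged lambda counts Iglv1 took 71.8%, 83.8% and 72.1%. In kidney macrophages no lambda count was seen among 144 to 320 light chain counts per library, where a count of 0 allows a share of up to 0.938% to 2.08%. Aged RCAM libraries had 6, 1, 0 and 7 lambda counts, shares of 0.0414%, 0.00611%, 0% and 0.0971% of light chain counts. All 4 lay below every capsule tissue library, of which the lowest had 0.876%. For the library with 0, the limit of 3 counts is a share of up to 0.051%. The lambda constant gene Iglc2 had 148, 138, 67 and 23 counts in aged RCAM and 8, 9, 8 and 2 in kidney macrophages. The lambda constant genes Iglc1 and Iglc3 had 0 in both groups. Few or no lambda variable counts therefore do not show that lambda RNA was absent.

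Diversity was summarised by the inverse Simpson index, the number of equally used segments that would give the same chance of drawing one segment in both of 2 random counts. It was 11.9, 11.9 and 18.6 in young capsules and 11.0, 16.9 and 2.33 in aged ones, so aged libraries 1 and 2 lay near or within the young range and library 3 far below it. In aged libraries 1, 2 and 3 it took 43, 57 and 7 segments to reach 90% of variable counts, against 29, 23 and 27 in the young libraries. At an equal depth of 200 variable counts, 50.8, 57.7 and 22.6 segments were expected in the aged libraries and 36.5 and 42.1 in young libraries 2 and 3, with young library 1 too shallow at 133 counts. The sign of the difference between group means changed with the index used, from -4.08 for the inverse Simpson index to 0.84 for the exponential of Shannon entropy.

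Aged capsule library 3 was dominated by 1 heavy and 1 kappa segment. Igkv14-126 made up 64.0% of all its variable counts and 77.3% of its kappa counts, and Ighv11-2 made up 66.6% of its heavy counts. Its second kappa segment was Igkv8-27 with 3903 counts, against 7 and 40 in the other aged capsules, and its second heavy segment was Ighv1-26 with 949. In aged libraries 1 and 2 the leading segments were Igkv3-2, with 22.3% and 14.2% of variable counts, then Igkv14-126 and Igkv4-91, and Ighv12-3 and Ighv11-2 were the 2 most counted heavy segments in both. The leading young segments differed by library: Igkv1-110 with 34 counts in library 1, Ighv1-19 with 54 in library 2 and Igkv15-103 with 54 in library 3.

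**Figure D2:**
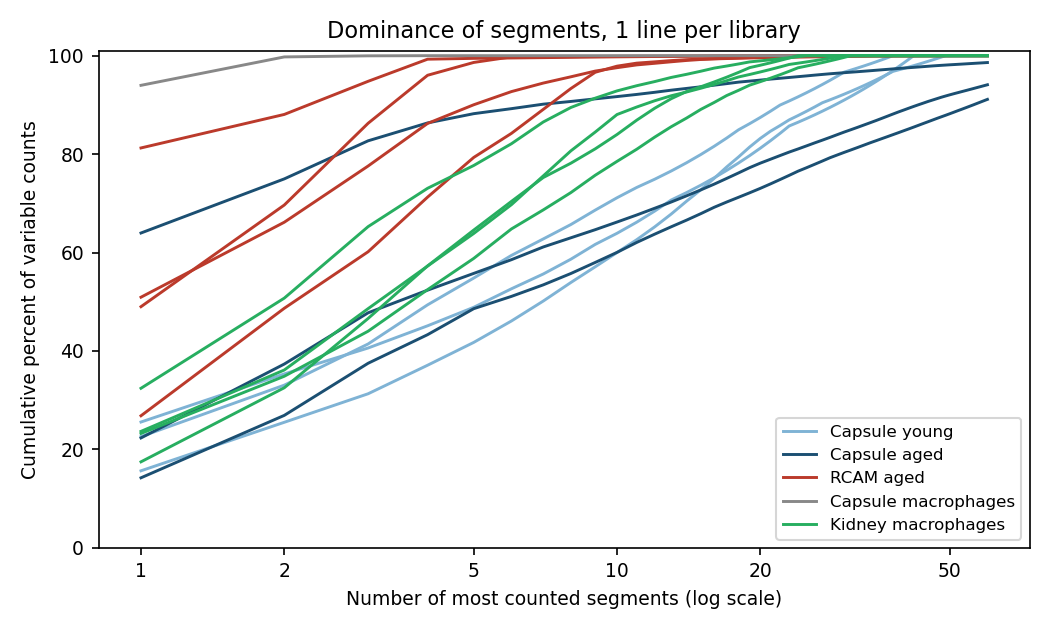
Cumulative percent of variable segment counts against the number of most counted segments (log axis), 1 line per library with at least 50 variable counts, coloured by group. The 4 aged RCAM lines reach 90% with 3 to 8 segments and the kidney macrophage lines with 9 to 16; of the aged capsules library 3 reaches it with 7 and the other 2 with 43 and 57.

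Aged RCAM libraries held 7505 to 18156 variable counts, most of them in few leading segments. Their inverse Simpson indices were 3.27, 3.12, 6.27 and 1.49, and 5, 4, 8 and 3 segments made up 90% of variable counts. Across the 4 libraries 32 segments reached 10 counts in at least 1 library, 23 of them in exactly 1 and 0 in all 4. In aged RCAM library 1 Igkv3-2 led with 8281 counts (50.9% of variable counts), followed by Igkv10-96 with 2477 and Igkv14-126 with 1857, and its heavy counts were led by Ighv1-53 with 617 and Ighv11-2 with 435. Library 2 was led by Igkv4-91 with 8896, Igkv3-10 with 3750 and Igkv1-135 with 3016. There Ighv12-3, with 1771 counts, was 98.8% of the heavy counts.

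Library 3 was the most even of the aged RCAM group. It held Igkv14-126 with 2014 counts, Igkv12-46 with 1639 and Igkv1-110 with 862, and on the heavy side Ighv11-2 with 605, Ighv6-6 with 367 and Ighv3-6 with 366. Library 4 was the least even. Its Igkv4-91, with 7159 counts, was 99.4% of kappa, while 3 heavy segments shared the heavy counts, Ighv12-3 with 600, Ighv1-53 with 593 and Ighv1-55 with 396. Heavy segments made up 10.9%, 9.88%, 21.7% and 18.2% of variable counts in the aged RCAM libraries. In the young ones 35 of the 60 counts were heavy, too few for a share to be compared.

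No segment reached 10 counts in all 4 aged RCAM libraries, and 0 of the 216 segments passed the filter on low counts in the RCAM comparison and none was tested there, neither by edgeR nor by DESeq2. Of the 15182 genes that were tested with edgeR's quasi-likelihood test, 3.43% rose with age and 1.38% fell. With no filter 1 segment passed the threshold, Igkv14-126, which was also the 1 segment called when aged library 2 was left out. Its counts were 0, 0, 0 and 2 in young and 1857, 5, 2014 and 15 in aged RCAM, so all aged libraries lay above the young ones and 2 of them only slightly. Igkv4-91 had no count in young RCAM and 0, 8896, 6 and 7159 in aged RCAM, so the groups overlapped at 0.

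The 2 segments of each partner pair were high or low in the same aged libraries. Ighv11-2 took 11.3%, 8.77% and 66.6% of heavy counts in aged capsules 1 to 3 and Igkv14-126 took 20.9%, 15.1% and 77.3% of kappa counts. In aged RCAM libraries 1 to 4 the same segments took 24.5%, 0%, 37.2% and 0.125% of heavy and 12.8%, 0.0306%, 34.3% and 0.208% of kappa counts. The libraries with little of the one had little of the other. For the other pair, Ighv12-3 took 18.6%, 21.7% and 6.17% of heavy counts in aged capsules and Igkv4-91 took 14.5%, 18.0% and 4.39% of kappa counts. In aged RCAM Ighv12-3 took 0%, 98.8%, 0% and 37.5%, and Igkv4-91 took 0%, 54.4%, 0.102% and 99.4%. Reads from bulk RNA do not show which heavy and light chains were made in one cell.

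**Figure D3:**
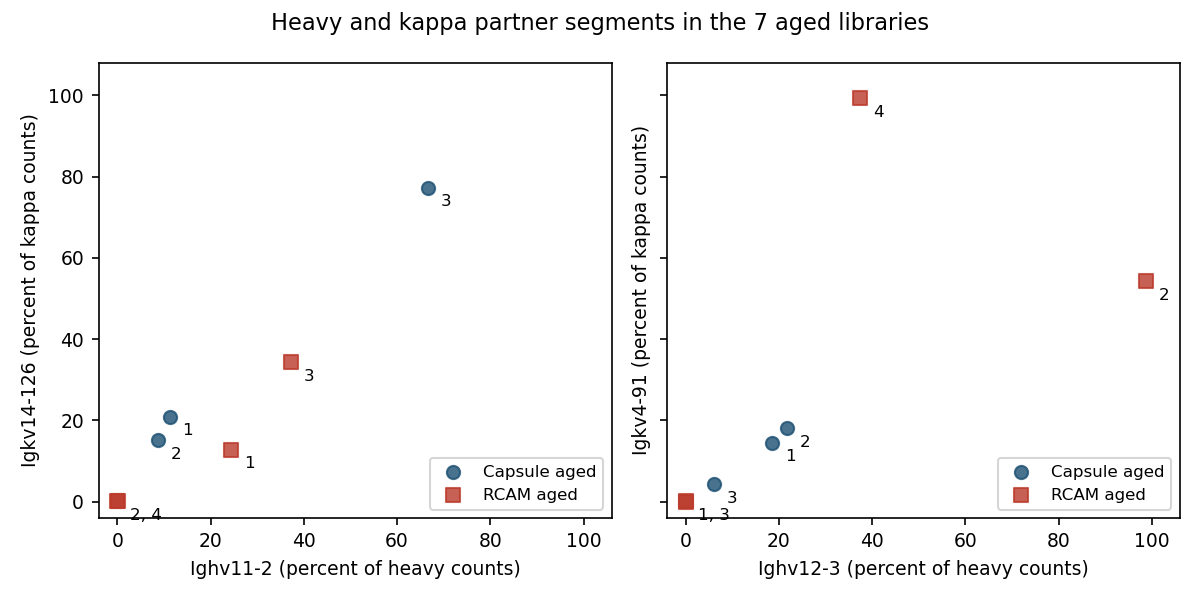
Share of kappa counts taken by the light segment against the share of heavy counts taken by its heavy partner, in percent, for Ighv11-2 with Igkv14-126 (left) and Ighv12-3 with Igkv4-91 (right); points are the 3 aged capsule and 4 aged RCAM libraries, numbered by replicate. RCAM libraries 1 and 3 and all capsules hold the first pair, RCAM libraries 2 and 4 and all capsules hold the second, and where a pair is at or near 0 on one axis it is so on the other.

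Together these 4 segments made up 32.8%, 31.4% and 79.6% of variable counts in aged capsules and 3.01%, 13.8% and 17.1% in young ones, so every aged capsule exceeded every young one. In aged RCAM the share was 14.1%, 58.8%, 35.0% and 88.3%. In the 4 kidney macrophage libraries all 4 segments had 0 counts, and in capsule macrophage library 3 as well. The 4 were chosen for their known use by B-1 cells and with earlier results of these data known, so the shares are a description.

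**Figure D4:**
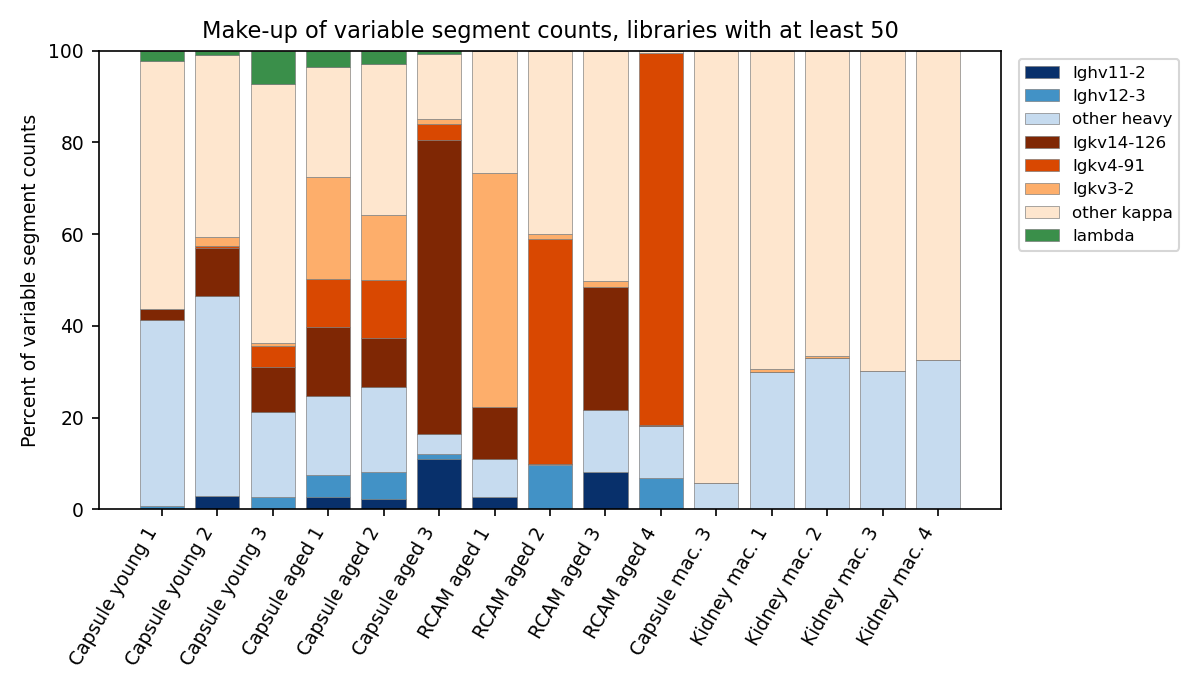
Stacked percent of variable segment counts in each of the 15 libraries with at least 50 such counts, split into the 2 named heavy segments, other heavy segments, 3 named kappa segments, other kappa segments and lambda. Igkv14-126 fills 64.0% of aged capsule 3, Igkv4-91 fills 81.3% of aged RCAM 4, and the named segments are nearly absent from the macrophage libraries.

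Segment families, groups of related sequence, differed between libraries in the same way. The Ighv1 family, with 53 of the 113 heavy segments, took 47.8%, 41.5% and 18.5% of heavy counts in aged capsules and 25.5%, 87.4% and 68.5% in young ones. In aged RCAM it took 71.7%, 0.837%, 16.7% and 62.1%. The Igkv4 family, the largest kappa family with 26 segments, took 22.9%, 28.2% and 5.71% of kappa counts in aged capsules and 13.3%, 12.7% and 16.2% in young ones. Neither of these large families separated aged from young capsules. Of all 36 heavy and kappa families 6 did, a description with no test. Ighv11 was higher in every aged capsule, at 0%, 6.31% and 0% of heavy counts in young and 11.3%, 8.77% and 66.6% in aged capsules. Ighv5 (6.05%, 3.84% and 0.745% in aged capsules), Ighv14 (0.673% to 2.80%) and Ighv4 (0.084% to 1.68%) had no young count. With 55, 111 and 73 heavy counts in the young libraries, a count of 0 allows a share of up to 5.45%, 2.70% and 4.11%, so the young values of 0 do not show that these 3 families took a smaller share. Igkv6 took 9.33%, 19.8% and 4.86% of kappa counts in young and 4.63%, 3.14% and 0.587% in aged capsules. Igkv15, a family of 1 segment, took 2.67%, 3.17% and 21.9% in young and 0.156%, 0.762% and 0.019% in aged capsules. Both kappa families thus took a smaller share in every aged capsule, Igkv6 by a narrow margin between young library 3 and aged library 1. For Igkv15 the shares of young libraries 1 and 2 rested on 2 and 4 counts, of 75 and 126 kappa counts. Its separation is therefore uncertain.

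Libraries were also compared by the percent of variable counts they shared segment by segment, which is 100% for identical usage. Young capsules shared 12.5% to 25.8% with each other. Aged capsules 1 and 2 shared 66.2%, while aged capsule 3 shared 31.2% and 27.1% with them. Among aged RCAM libraries 2 and 4 shared 55.9% and the other 5 pairs 0.388% to 15.9%. Between tissue and RCAM the highest values were 44.2% for aged capsule 1 with aged RCAM 1, which both held Igkv3-2 and Igkv14-126, and 38.0% for aged capsule 3 with aged RCAM 3, where Ighv11-2 and Igkv14-126 led their chains. Young capsules hold 133 to 345 variable counts, and the part of so few counts in their low values was not tested.

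**Figure D5:**
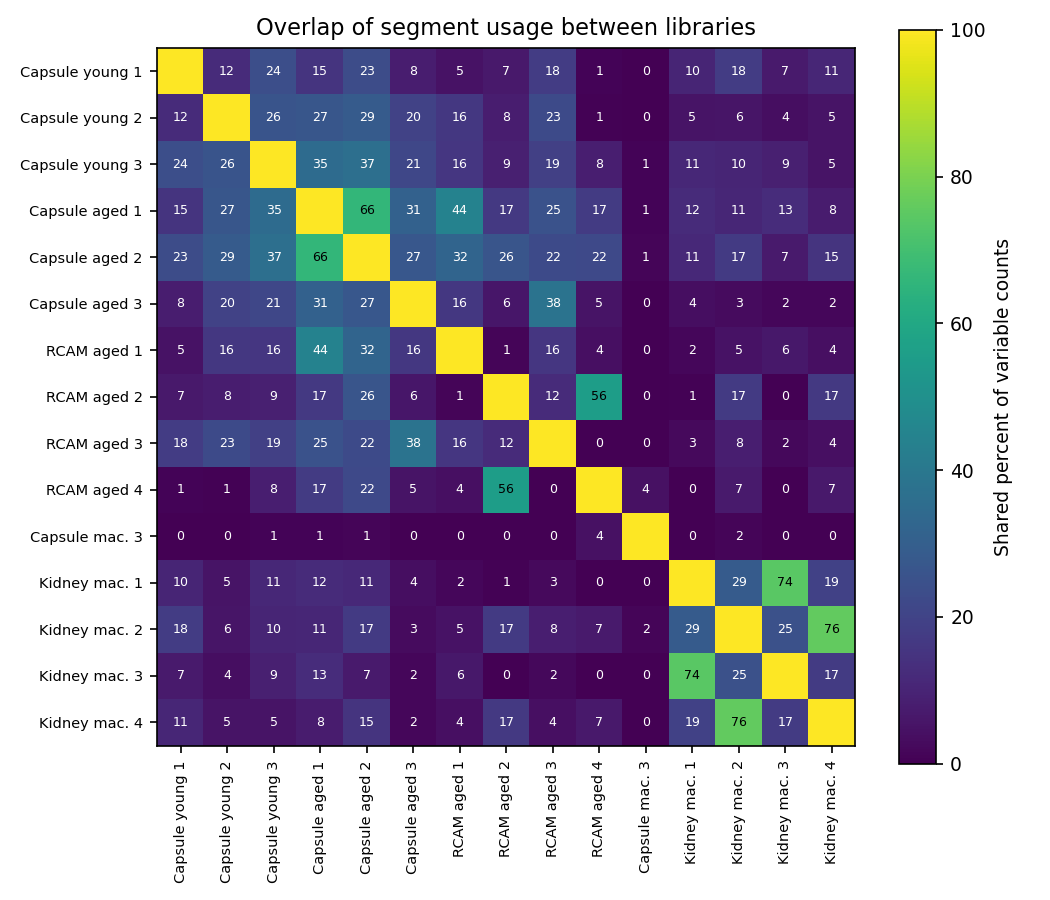
Percent of variable segment counts shared by each pair of the 15 libraries with at least 50 such counts, as the sum over segments of the smaller of both shares. Kidney macrophage libraries pair as 1 with 3 (74.4%) and 2 with 4 (75.8%), and capsule macrophage library 3 shares at most 4.49% with any other library.

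Kidney macrophages held 284, 393, 206 and 475 variable counts, in 2 sets of libraries. Libraries 1 and 3 both led with Igkv12-44 (66 and 36 counts) and Igkv16-104 (33 and 31), with Ighv1-82 (26 and 22) and Ighv5-9-1 (17 and 15) on the heavy side. Libraries 2 and 4 both led with Igkv1-135 (93 and 154) and Igkv4-55 (49 and 87), with Ighv1-53 (49 and 69), Ighv1-80 (34 and 37) and Ighv14-2 (14 and 22). Pairs within these sets shared 74.4% and 75.8% of variable counts and the other 4 pairs 17.5% to 28.9%. Heavy shares were nearly equal in all 4 libraries, 31.4% ± 1.65 (SD, n = 4), and the inverse Simpson indices were 10.5, 9.11, 10.4 and 5.81. The labels say nothing of a shared animal or pool, so whether these are 4 independent samples was not tested.

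Capsule macrophages held 13, 9, 6306 and 7 variable counts. Library 3 was close to a single pair: Igkv12-89 with 5926 counts made up 94.0% of its variable counts and 99.7% of kappa, and Ighv1-55 with 364 counts made up all heavy counts. In the other 3 libraries neither segment had a count. In the 4 kidney libraries Igkv12-89 had 0, 3, 0 and 0 counts, and Ighv1-55 had 0, 2, 0 and 0. The plasma cell gene Jchain, which encodes the chain linking IgM and IgA multimers, stood at 38.1 CPM in library 3 and at most 0.148 CPM in the other 3. The inverse Simpson index of library 3 was 1.13.

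Between capsule and kidney macrophages 2 segments passed the filter, both through their kidney counts alone. Segments that pass in this way tend to be higher in kidney, so their direction and absence of overlap are no separate support. Both were called lower in capsule macrophages, where 28.2% of all 15701 genes tested were lower, and nothing is read from that count. Igkv12-89, high in capsule library 3 only, did not pass the filter. With no filter, 2 of 57 segments were called higher and 15 lower in capsule macrophages, against 4209 higher and 4750 lower of all 25103 genes. Igkv1-117 had 0, 4, 0 and 0 counts in capsule and 24, 23, 29 and 21 in kidney macrophages (log2 difference -4.32 ± 0.98, adjusted p = 0.0034, edgeR's quasi-likelihood test). Igkv4-55 had 0, 0, 0 and 2 against 18, 49, 10 and 87 (adjusted p = 0.000986, edgeR), a ratio of pooled CPM of 86.4 with a counting interval of 23.6 to 720. With kidney libraries 1 and 3 summed, and 2 and 4 summed, both were still called (adjusted p = 0.0351 and 0.0084, edgeR), in an alternative chosen after seeing the data, and Igkv12-44 passed as well. The difference in summed level had no fixed direction: capsule exceeded kidney macrophages by 26.3 CPM on average, and fell below them by 7.62 CPM without capsule library 3, when the kidney libraries were 36.5-fold higher on average.

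Some markers of B and plasma cells and of other cell types moved with the variable segments and others did not. Their part in these results was not tested. In capsule tissue 2 of 11 B cell genes (Cd22, Cd79a) and 3 of 10 plasma cell genes (Jchain, Pou2af1, Mzb1) rose with age and 0 fell, by edgeR. At an unadjusted p under 0.05, 10 and 6 differed. Their summed levels were 41.3 to 59.8 against 110 to 164 CPM and 547 to 724 against 976 to 1529 CPM in young and aged capsules. T cell genes summed to 13.5 to 24.9 CPM in young and 53.6 to 64.8 CPM in aged capsules, with 0 of 6 past the edgeR threshold and 6 at an unadjusted p under 0.05. Macrophage genes summed to 1753 to 3521 and 3645 to 9177 CPM, with 0 of 8 past the threshold and 5 at an unadjusted p under 0.05. Neither list overlapped between ages in its sum. In RCAM 3 of the 8 B cell genes tested (Cd22, Cd79a, Cd79b) and 2 of the 10 plasma cell genes (Jchain, Mzb1) rose and Irf4 fell. The summed levels there, 242 to 298 and 250 to 300 CPM for B cell genes, overlapped between ages. Those of plasma cell genes, 685 to 715 CPM in young and 684 to 914 CPM in aged RCAM, overlapped as well. Ms4a1, a defining B cell gene that encodes the CD20 antigen, was at 0 in all 16 macrophage and RCAM libraries. Jchain stood at 102, 234, 45.9 and 33.0 CPM in aged RCAM and at 0, 0, 0.235 and 0 in young RCAM. Mzb1, a chaperone of antibody assembly, was at 0.756 to 4.50 CPM in aged RCAM and 0 in young RCAM. The 8 macrophage markers did not separate young from aged RCAM (0 of 8 passed the edgeR threshold, 1 at an unadjusted p under 0.05), whereas 2 of 4 fibroblast genes (Dcn, Pdgfra) rose, their sum going from 392 to 570 CPM in young to 721 to 1971 CPM in aged RCAM. Adipocyte genes summed to 20.8 to 37.9 CPM in young and 40.9 to 84.1 CPM in aged RCAM, and 1 of 5 (Fabp4) rose. T cell genes summed to 26.96 to 42.1 and 44.5 to 70.0 CPM, with 0 of the 4 tested past the threshold and 1 at an unadjusted p under 0.05. Capsule macrophages held 291 to 316 CPM of the B cell genes and kidney macrophages 181 to 220 CPM, with 2 of 7 tested higher and 3 lower by edgeR. Of 8 plasma cell genes tested, 4 were higher and 1 lower in capsule macrophages. Their list summed to 584 to 737 CPM in capsule and 548 to 621 CPM in kidney macrophages. Proximal tubule genes were lower in capsule macrophages (5 of 5, 7.96 to 94.99 against 968 to 1852 CPM), and fibroblast genes higher (4 of 4, 427 to 674 against 5.60 to 9.14 CPM).

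The recombination genes Rag1 and Rag2, which cut the variable segments during B cell development, were at 0 in all 22 libraries. Of the 10 recombination and joining genes 7 were tested in capsule tissue and 8 in RCAM, and 0 passed the edgeR threshold with age in either, with 1 in each at an unadjusted p under 0.05. Of 7 genes of class switching and hypermutation 6 were tested in each, with the same result, 0 past the threshold and 1 at an unadjusted p under 0.05. The 4 surrogate light chain genes, used by precursor B cells, were tested in neither comparison and summed to at most 1.22 CPM in any library.

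Set against Ighm, the constant gene of IgM, heavy variable counts were 18.2, 35.1 and 18.0 per 1000 Ighm counts in young capsules and 45.8, 70.8 and 68.1 in aged ones. They were 0.0959 to 0.236 in young RCAM and 20.4 to 28.2 in aged RCAM, while Ighm stood at 979 to 1150 CPM in young RCAM and 1239 to 1865 CPM in aged RCAM. Capsule macrophages had 0.0148 to 6.08 per 1000 with Ighm at 1263 to 1357 CPM. Kidney macrophages had 1.78 to 2.96 per 1000 with Ighm at 1046 to 1091 CPM. Ighm was thus high in libraries with few variable counts, and the ratio is a description. It also leaves out the other heavy constant genes. Igha, the constant gene of IgA, stood at 381 CPM in aged RCAM library 2, where Ighv12-3 was nearly the sole heavy segment, and at most at 0.423 CPM in the other 3 aged RCAM libraries.

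Whether the age effect differed between RCAM and capsule tissue was tested as an interaction over 18856 genes, among them 88 segments. Ighv6-3 alone passed the threshold, with a smaller age effect in RCAM (difference of log2 effects -9.10 ± 1.98, adjusted p = 0.0261, edgeR's quasi-likelihood test), where 1.93% of all genes tested were called in this direction. It had 1, 0 and 0 counts in young and 54, 209 and 19 in aged capsules, against 0, 1, 5 and 1 in young and 0, 0, 0 and 1 in aged RCAM. The RCAM counts lay at or near 0 throughout, and the call was lost without young capsule library 1 or young RCAM library 3.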

How the data were processed

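RNA was measured in 22 libraries; the labels' protocols describe a regular-input and a low-input kit and do not say which library had which. The authors deposited raw counts per gene and RPKM values; the build was GRCm38, per the submitters' processing notes, and no label or header names the aligner, counter or strand setting. Only counts were used; the deposited RPKM values entered no result. CPM used each library's total count, 20586795 to 54421764. Variable genes came from GENCODE M21. Each SE of a log2 difference was derived from the edgeR test, as the size of the difference over the square root of its F statistic. Differences were tested with edgeR 4.0.16 (TMM, default expression filter, quasi-likelihood, Benjamini-Hochberg over all genes tested), with DESeq2 1.42.0, limma 3.58.1, other scalings, no filter, a replicate block and left-out libraries as alternatives, checked on simulated data. The 10 exact permutation tests of summed level, chain shares and diversity gave no adjusted p below 0.143, and 3 libraries against 3 cannot go below 0.1. Indices of diversity needed 50 variable counts, which left no group comparison for RCAM or macrophages. Named segments were up to 6 called per chain of smallest p, each library's most counted segment of each chain, all lambda segments and 6 segments of B-1 antibodies; others were named after their values were seen. Members and lists were chosen with earlier results of these data known.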

Additional observations from a re-analysis of the deposited data

Results flagged for a closer look

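Capsule macrophage library 3 lay far from the other 3 of its group in summed variable segments, at 136 CPM, and in heavy variable counts per 1000 Ighm counts, at 6.08. Variable pseudogenes also had 1 library far from the rest in capsule macrophages, library 1 at 0.0187 CPM from 1 count, and in aged RCAM, library 1 at 0.641 CPM from 30 counts. Chance marks about 1 in 20 groups in this way. Ighv6-3 differed in its age effect between RCAM and capsule tissue by -9.10 on the log2 scale in the interaction test, with RCAM counts at or near 0. Variable pseudogenes were kept apart from the segments, and were added to them only in an alternative for the summary measures. They had a mean of 2.84 CPM in aged capsules and 0.206 CPM in aged RCAM, with 0 counts in the young libraries of both.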

How the results depend on the processing

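The number of segments called in aged against young capsules was 10 with edgeR, 11 with other size factors and 10 with TMM scaling that left out immunoglobulin genes. It was 77 with no expression filter, 52 with DESeq2, 5 with limma-voom and 47 with all 6 groups in 1 fit. It was 24 without both replicate 2 libraries and 0 to 17 with 1 library left out. Calls over all genes moved too. Higher and lower, they were 25 and 14 in the main fit, 403 and 692 with no filter, and 754 and 1122 with DESeq2. With limma-voom they were 14 and 11, and with all groups 2293 and 804. Kidney against capsule macrophages gave 2 calls, 17 with no filter and 13 with all groups in 1 fit. Over all genes these fits called 4281, 4209 and 4229 higher in capsule macrophages and 4420, 4750 and 4440 lower. RCAM gave 0, then 1 with no filter, 4 with all groups and 0 to 1 with 1 library left out. Over all genes 520, 539 and 623 rose in the main, unfiltered and all-group fits. In the same fits 209, 161 and 114 fell. The interaction gave 1, 22 with limma-voom and 0 to 1 with 1 library left out. The cause was not tested.

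Replicate numbers were not taken to pair libraries. In capsules, same-numbered libraries deviated together with correlations of 0.0986, 0.353 and 0.310, each the highest for its library, a hint from the data and not from the design. With the replicate number as a block 56 segments were called in capsules, where 943 of all genes rose and 1253 fell. The block changed no segment count in macrophages (2) or RCAM (0).

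The capsule difference in lambda share was -1.63 percentage points, -3.28 to 0.537 with 1 library left out and above 0 only without young library 3. That in the effective number of segments was -4.08, 0.836 with Shannon entropy and 4.42 at 200 counts. In macrophages, the summed difference of 26.3 CPM became -3.75 with each library's leading segment removed and -7.62 to 37.6 with 1 library left out. The heavy share difference there of -1.88 became 9.68 and -15.8 to 6.05, respectively, above 0 without capsule library 1 (5.41) or 3. In RCAM the heavy share difference of -58.9, -36.7 without the leading segments and -70.3 to -50.3 with 1 library left out, rests on young libraries of 6, 8, 30 and 16 counts, and nothing is read from it. Among segments called in the main fits, 146 results kept their direction and side of the threshold under an alternative, 44 lost it and 0 reversed. Segments not called were outside this tally, as were alternatives in which a segment was not tested. The large log2 differences of called segments left little room for a reversal. Young RCAM and 3 capsule macrophage libraries held 6 to 30 variable counts, which limits any share in them.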
